A study of Mus musculus with 148 samples.

Results

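DNA modification in enterocytes of intestinal segment 3 was compared between mice given lactose-free milk (lac-) and mice given lactose-containing milk (LAC+). The samples were those that the labels place at postnatal day 90 (P90) and in segment 3, which gave 6 lac- and 7 LAC+ samples, 13 of the 148 samples of the series. All were C57BL/6NCrl mice that had received a milk in place of water from P30 for 60 days, with food freely available. Both milks were 2% milks, the LAC+ milk was organic and the lac- milk was not described as such, and sucrose, about 12 g in 500 ml, was added to the LAC+ milk only, so that lactose, sucrose and milk product cannot be told apart. No P90 mice on water were among these groups. The epithelium was released from the gut wall with a chelator, and a percent modification is therefore taken over the DNA of all cells in a preparation. Fewer cells of a type and a change within cells cannot be told apart in such a value. The labels call the cells enterocytes, and no expression was analysed here against which this name could be checked. The study reported its own check of purity, by histology and by sorting cells from mice with a fluorescent enterocyte marker. The labels also call the subregion distal duodenum, whereas the study's own description counts segment 3 as proximal jejunum. Adult mice were housed by sex with littermates, and the labels tie no sample to a litter, cage or sex, so that p-values measure the spread between these samples only.

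Lct encodes lactase, the enzyme of the enterocyte brush border that splits milk sugar into glucose and galactose. Its expression is high in suckling mammals and declines after weaning. The neighbouring gene Mcm6 encodes a subunit of the helicase that opens DNA for replication, and in humans its intron 13 holds an enhancer of lactase whose variants keep the enzyme into adulthood. Cytosines followed by guanine (CpGs) are the main sites of DNA methylation in mammals, and promoters of active genes are usually poor in it. At imprinted genes the allele from 1 parent is methylated over a control region and the other is not, so that intermediate levels are usual there. Bisulfite sequencing reads methylation and hydroxymethylation alike, and both are covered here by the word modification.

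The stretches below carry the results and are given first, from GRCm38, 5′ to 3′, with CpGs in capitals. The 4 stretches of Lct and Mcm6 origin and that of Kcnq1ot1 are printed on the strand on which these genes are transcribed, and those of the Zdbf2 and Nnat targets on the plus strand. The first ends at the base before the Lct start and holds 1 CpG, 5 bp upstream of that start. It had the largest difference between the diet means of any locus CpG.
Lct upstream, chr1:128328319-128328418, minus strand: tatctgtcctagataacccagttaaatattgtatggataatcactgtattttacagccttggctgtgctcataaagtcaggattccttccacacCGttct
The second spans the end of Mcm6 exon 13 and the start of intron 13 and holds 7 CpGs, of which the 6 exonic ones lie 9800 to 9877 bp upstream of the Lct start. It had the largest spread between libraries among the study's regions.
Mcm6 exon 13 and intron 13, chr1:128338083-128338205, minus strand: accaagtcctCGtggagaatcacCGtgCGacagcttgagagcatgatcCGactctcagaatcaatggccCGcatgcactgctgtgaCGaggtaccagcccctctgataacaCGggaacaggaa
The third is coding sequence of Lct exon 12 with 5 CpGs, which were read on the plus strand. Its mean had the lowest p among the Lct and Mcm6 features.
Lct exon 12, chr1:128293627-128293738, minus strand: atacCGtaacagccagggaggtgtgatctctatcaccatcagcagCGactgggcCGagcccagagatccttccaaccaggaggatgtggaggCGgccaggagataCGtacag
The next holds the locus CpG with the lowest p, in Lct intron 14.
Lct intron 14, chr1:128288910-128288950, minus strand: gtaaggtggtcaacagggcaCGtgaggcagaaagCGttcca
The Zdbf2 stretches hold the 5 CpGs with the lowest p outside the locus, 3 in the first and 2 in the second.
Zdbf2 region, first stretch, chr1:63267048-63267120, plus strand: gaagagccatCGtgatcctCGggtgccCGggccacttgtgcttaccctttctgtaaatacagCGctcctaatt
Zdbf2 region, second stretch, chr1:63272799-63272859, plus strand: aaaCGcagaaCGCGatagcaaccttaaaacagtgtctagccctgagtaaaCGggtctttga
The last pair are targets in which all covered CpGs were lower in the LAC+ mean.
Kcnq1ot1, chr7:143295332-143295480, minus strand: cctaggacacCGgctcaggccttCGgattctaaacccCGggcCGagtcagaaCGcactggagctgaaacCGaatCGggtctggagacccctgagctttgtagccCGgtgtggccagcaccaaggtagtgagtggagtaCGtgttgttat
Nnat, chr2:157559673-157559804, plus strand: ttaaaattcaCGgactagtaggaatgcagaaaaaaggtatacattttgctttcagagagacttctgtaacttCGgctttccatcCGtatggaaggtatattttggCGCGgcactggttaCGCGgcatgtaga

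The deposited values are counts of reads that called each cytosine modified or unmodified. They summed to between 39582067 and 177582904 per sample, and the deepest sample was lac- replicate 5, followed by LAC+ replicate 4 with 92717260. Of the locus CpGs, 624 to 670 per sample had more than 30 reads, and 820 to 898 of the other targets. The mean over locus CpGs was 75.6 to 78.5% and that over locus cytosines outside CpG (CpH) 0.702 to 0.775%. File names mark 1 lac- and 4 LAC+ files as merged from several runs, against 5 and 3 that were not, and only lane 1 was shared by the diets, with 1 lac- and 6 LAC+ samples. Diet therefore went largely with lane, and values within kinds of file are given where they bear on a result. Unmerged lac- files came from lanes 3, 6 and 7 and unmerged LAC+ files from lanes 1 and 2. Values within kinds of file therefore do not separate diet from lane. LAC+ replicates 1, 2, 5 and 7 and lac- replicates 4 and 5 lay at or near an end of the range of their diet at several regions. Their values are given below for each.

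No CpG and no region differed between the diets after correction for multiple testing. Of 1510 CpGs for which each diet had 3 or more samples above 30 reads, 330 were modified above 90% and were left out, following the study, and 1180 were tested, 362 in the locus and 818 in the other targets. In the quasi-binomial F test, which takes the spread of each CpG from the samples, 0 passed Bonferroni correction at 0.01 (0% of those tested; lowest adjusted p = 0.427) and 0 passed Benjamini-Hochberg correction at 0.05 (lowest 0.22). At an unadjusted p under 0.05 there were 95 CpGs (8.05%), 74 lower in LAC+ (6.27%) and 21 higher (1.78%). limma on log2 odds likewise gave 0 CpGs after either correction (lowest Bonferroni adjusted p = 0.236). The difference between the diet means was within 5 percentage points at 935 of the 1180 CpGs and 10 points or more at 72. The median dispersion was 6.82, so that samples of a diet differed by more than read counting alone would give.

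Among locus CpGs the LAC+ mean was lower at 180 of 362 and higher at the rest, with a median difference of 0.00799 percentage points, and 19 had an unadjusted p under 0.05 (5.25% of the locus). Among CpGs of the other targets 314 were higher and 504 lower, the median difference was −0.805 points, and 76 had an unadjusted p under 0.05 (9.29%). Averaged per sample over 622 locus CpGs read more than 30 times in every sample, modification was 76.8% ± 0.894 (SD, n = 6) in lac- and 77.1% ± 1.02 (SD, n = 7) in LAC+, a difference of 0.253 points (exact permutation test, two-sided, p = 0.644; 95% interval −0.953 to 1.41). Over 803 CpGs of the other targets it was 49.9% ± 0.649 in lac- and 48.7% ± 0.914 in LAC+. That difference of −1.18 points had a 95% interval of −2.18 to −0.207 (exact permutation p = 0.0204; 0.0612 after adjustment over the 3 sample means compared). With reads pooled over CpGs it was −0.577 points (exact permutation p = 0.183). When diets were permuted only within merged and within unmerged files it was −1.23 points (exact permutation p = 0.0393). Locus CpHs stood at 0.721% ± 0.0133 and 0.739% ± 0.0208 (exact permutation p = 0.0985, adjusted 0.148).

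**Figure D1:**
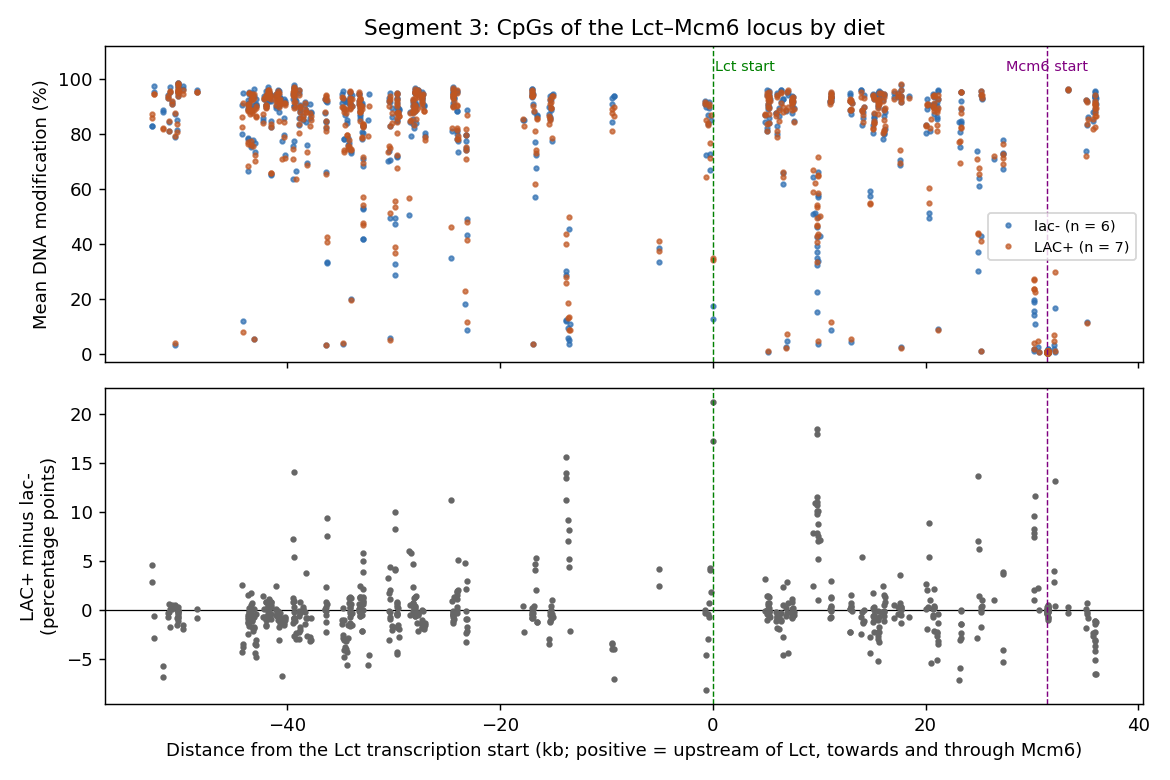
Each point is a CpG of the Lct–Mcm6 locus on 1 strand, placed by its distance in kb from the Lct start. The upper panel gives the mean modification in percent in lac- (blue) and LAC+ (orange), and the lower panel LAC+ minus lac- in percentage points. Most differences lie within 5 points, and the largest, 21.2 points, is at the CpG just upstream of Lct.

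Exons, introns and 2 kb upstream flanks of Lct and Mcm6, and each other target, were averaged per sample over their CpGs, which gave 82 features. None passed Benjamini-Hochberg correction at 0.05 (0%; lowest adjusted p = 0.382), 9 had an unadjusted exact permutation p under 0.05 (11%), and 8 of these 9 were lower in LAC+ (9.76%). In 0 of the 82 (0%) did the 6 lac- and 7 LAC+ values fail to overlap. The 60 Lct and Mcm6 features divided evenly, 30 higher and 30 lower in LAC+, with a median difference of −0.00653 points, whereas 7 of the 22 other targets were higher and 15 lower (median −0.940 points). The 95% interval of the difference lay within 5 points of 0 in 60 of the 82 features and within 10 points in 71. The other 11 reached 10 points or beyond on a side, so that differences of this size were not excluded by the interval there. Merged files alone (1 lac- and 4 LAC+) cannot give an exact p below 0.2, and unmerged files alone cannot go below 0.018.

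**Figure D2:**
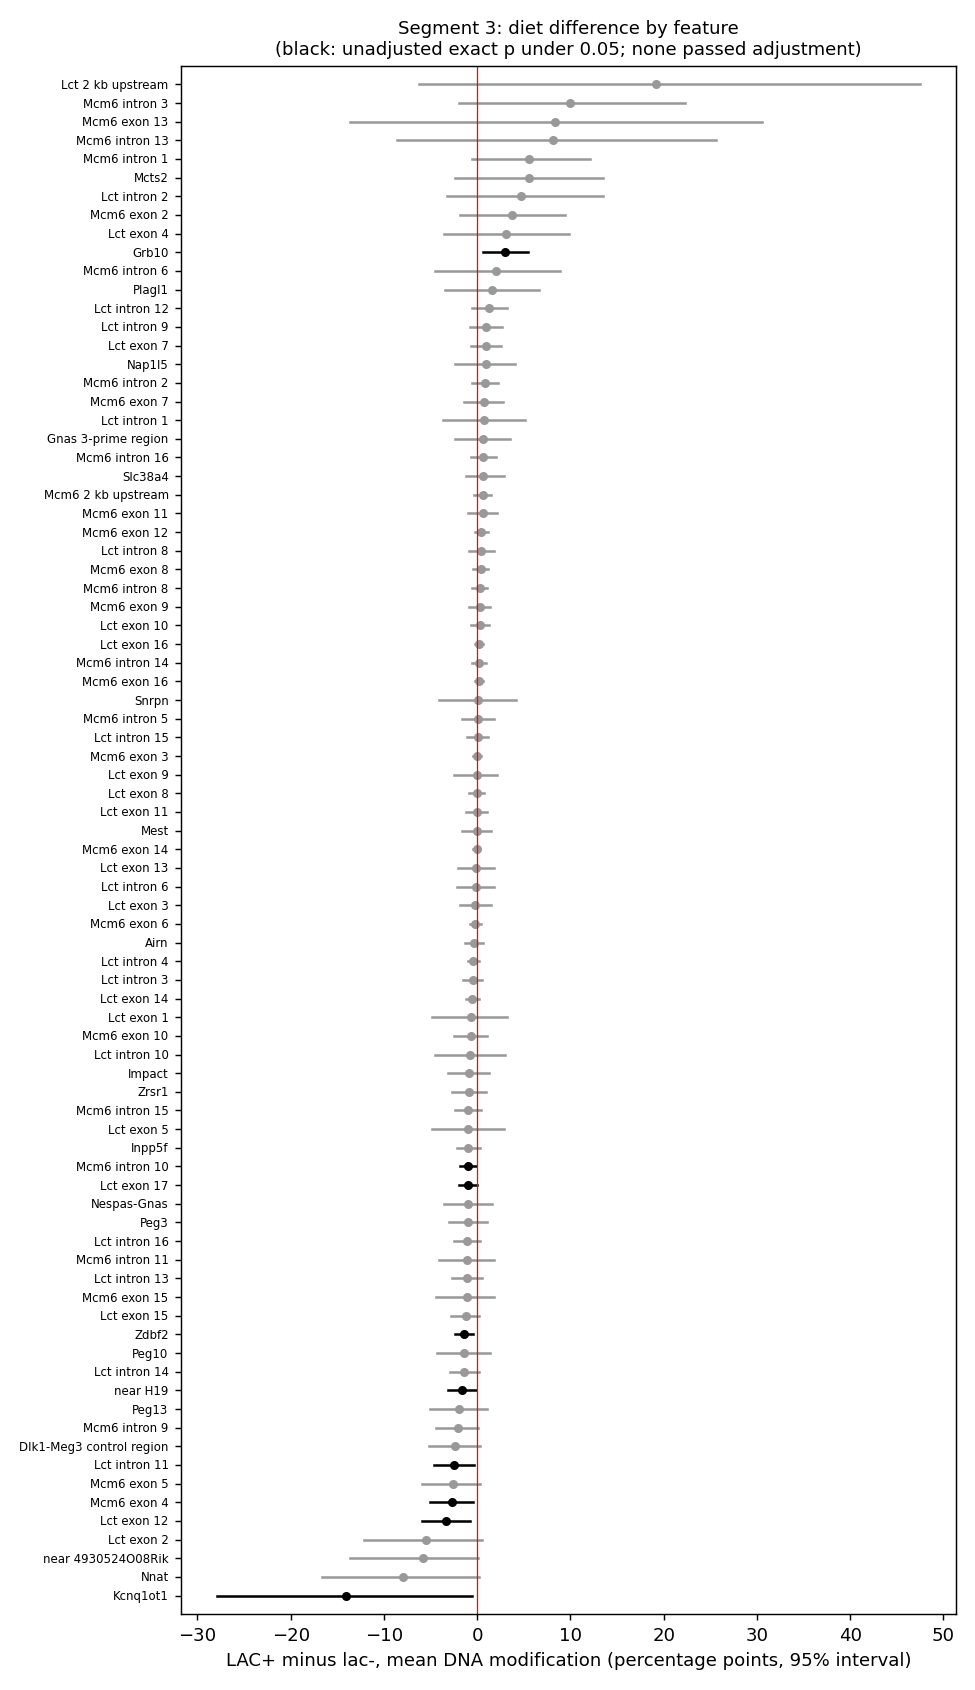
Difference between the diet means, LAC+ minus lac-, in percentage points for each of the 82 features, with its 95% interval from inverting the exact permutation test. The 9 features in black have an unadjusted p under 0.05, and the widest intervals belong to the Lct upstream CpG, Mcm6 exon 13 and Mcm6 intron 13.

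The study had singled out 9 exons and introns at the locus, partly on these samples, so that this choice is not independent of the values. Mcm6 intron 1 is among them as the study's negative control for differences between intestinal segments. At the Lct promoter, the measured part of the 2 kb upstream flank (chr1:128328319-128330318) was the single CpG shown above, read on both strands. In lac- it ranged from 7.97% to 32.6% with a median of 10.1%, and in LAC+ from 4.92% to 87.2% with a median of 32.7%. LAC+ replicates 1 and 2 had the lowest values of all 13 samples and replicates 7 and 5 the highest. The means of 15.2% ± 10.1 (SD, n = 6) and 34.4% ± 28.7 (SD, n = 7) differed by 19.2 points, with an interval of −6.24 to 47.5 (exact permutation p = 0.155). Within kinds of file the difference was 15.6 points (p = 0.375 by exact permutation), 20.9 in unmerged and 3.05 in merged files. Without LAC+ replicate 7 alone it was 10.4 points. Without lac- replicate 4 and LAC+ replicate 7 it was 8.95 points (p = 0.383 by exact permutation), an alternative chosen after seeing the data.

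Lct exon 1 (chr1:128327658-128328318), which holds the first coding sequence, was highly modified in both diets, at 82.1% ± 4.39 in lac- and 81.4% ± 1.89 in LAC+ over 9 CpGs. The difference was −0.660 points (exact permutation p = 0.746; interval −4.85 to 3.21). The highest value, 89.3%, was that of lac- replicate 4, and the other lac- samples lay between 77.7% and 83.9%. Without that sample the difference was 0.779 points, of the opposite sign.

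Lct intron 2 (chr1:128313139-128319058), a candidate enhancer region of the study, had 16 covered CpGs from nearly unmodified to nearly fully modified. Its mean was 43.6% ± 4.35 in lac- (39.4 to 50.5%, median 41.6%) and 48.3% ± 8.58 in LAC+ (39.2 to 64.4%, median 46.3%). LAC+ replicate 7 was the highest, and LAC+ replicates 1 and 2 were among the 3 lowest. The difference of 4.69 points had an interval of −3.28 to 13.4 (exact permutation p = 0.269), and it was 3.40 points within kinds of file and −1.94 in merged files alone. Without LAC+ replicate 7 it was 1.99 points.

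Intervals were narrow for the means of 3 gene body regions of Lct. Intron 8 (chr1:128298735-128299838) was 76.1% ± 1.19 in lac- and 76.5% ± 1.03 in LAC+, a difference of 0.434 points with an interval of −0.900 to 1.82 (exact permutation p = 0.495). Exon 9 (chr1:128298466-128298734) was 82.5% ± 2.58 and 82.4% ± 1.15, a difference of −0.0262 points with an interval of −2.44 to 2.18 (exact permutation p = 0.983). Intron 9 (chr1:128295364-128298465) was 70.7% ± 1.05 and 71.7% ± 1.64, a difference of 0.944 points with an interval of −0.747 to 2.69 (exact permutation p = 0.258). At these 3 regions every value between the interval bounds was under 3 points, so that larger differences of the regional mean fall outside the intervals. This does not hold for single CpGs, whose differences went in both directions within each region. They ran from −2.73 to 5.97 points in intron 8, which had 3 CpGs. The range was −4.46 to 8.29 points in exon 9 and −5.58 to 10.0 points in intron 9.

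Lct exon 12 (chr1:128293627-128293829) had the lowest p of the Lct and Mcm6 features. Its 5 CpGs, each with 1500 to 8340 reads in a sample, averaged 82.8 to 88.8% (median 84.6%) in lac- and 78.2 to 83.9% (median 82.2%) in LAC+. Lac- replicate 4 was the highest and LAC+ replicate 7 the lowest, and the diets overlapped between 82.8% and 83.9%. The means were 84.9% ± 2.24 (SD, n = 6) and 81.6% ± 1.97 (SD, n = 7). LAC+ was thus 3.35 points lower (interval of LAC+ minus lac- −5.95 to −0.811; exact permutation p = 0.00932, Benjamini-Hochberg adjusted p = 0.382 over the 82 features), and all 5 CpGs were lower in LAC+, by 0.978 to 4.78 points. The difference was −3.02 points within kinds of file (exact permutation p = 0.0286), −3.76 in unmerged files (p = 0.0714 by exact permutation), −1.28 in merged files and −0.720 in lane 1. Without lac- replicate 4 and LAC+ replicate 7 it was −2.01 points (exact permutation p = 0.0346). The 5 exon 12 CpGs were read on 1 strand of a short stretch and are not independent.

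The neighbouring Lct intron 11 (chr1:128293830-128294125) was 82.3% ± 1.20 in lac- and 79.9% ± 2.15 in LAC+ over 8 CpGs, a difference of −2.45 points (exact permutation p = 0.0262, adjusted 0.382; interval −4.66 to −0.314). Lct exon 17 (chr1:128284756-128285336), the last exon, differed by −0.987 points (exact permutation p = 0.0408, adjusted 0.393). It was singled out after its value was seen, as the remaining Lct feature with an unadjusted p under 0.05. Of the 16 Lct exons measured, 12 were lower and 4 higher in the LAC+ mean, with a median difference of −0.140 points. Of the 14 Lct introns, 8 were lower and 6 higher (median −0.279).

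**Figure D3:**
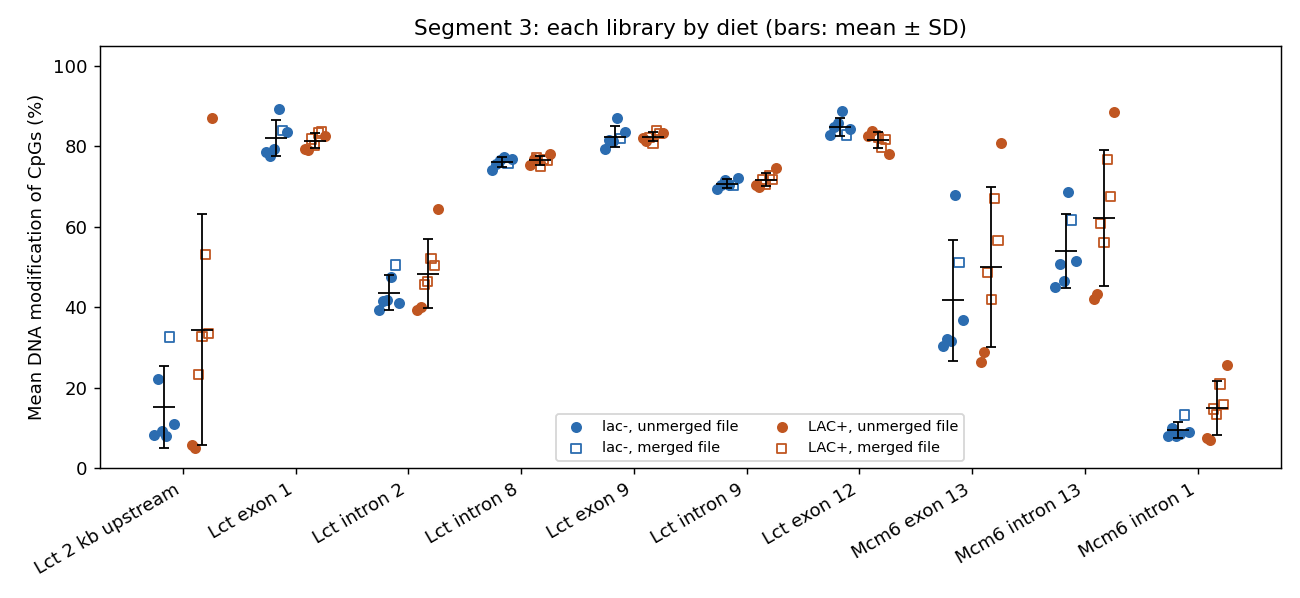
Mean modification in percent of the Lct upstream CpG and the 9 regions of the study in each sample, lac- in blue and LAC+ in orange, with squares for merged files and bars for mean ± SD. LAC+ replicate 7 is the topmost point at the Lct upstream CpG (87.2%), Mcm6 exon 13 (80.97%) and Mcm6 intron 13 (88.6%), while Lct intron 8, exon 9 and intron 9 hold all samples within narrow ranges.

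Mcm6 exon 13 (chr1:128338116-128338277) and the start of intron 13 varied most among the samples within the study's 9 regions. The 12 exon CpGs, 6 positions on both strands, averaged 30.4 to 67.9% (median 34.5%) in lac- and 26.3 to 80.97% (median 48.7%) in LAC+. Of the lac- samples, replicate 4 had 67.9%, replicate 5 had 51.1%, and the other 4 lay between 30.4% and 36.9%. Among LAC+, replicates 1 and 2 were below all lac- samples at 26.3% and 28.9%, and replicate 7 was above all of them. The means of 41.7% ± 14.9 (SD, n = 6) and 50.1% ± 19.9 (SD, n = 7) differed by 8.39 points (exact permutation p = 0.411), with an interval from −13.7 to 30.5 that covers large differences in either direction. Within kinds of file the difference was 4.66 points, and in lane 1 it was −6.20. It fell to 3.24 points without LAC+ replicate 7 and to 5.55 without LAC+ replicate 5, and was 13.6 without lac- replicate 4.

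The 7 CpGs of intron 13 (chr1:128335866-128338115) averaged 54.04% ± 9.25 in lac- and 62.2% ± 16.99 in LAC+, 8.13 points apart (exact permutation p = 0.321; interval −8.61 to 25.7), and 3.72 points apart without LAC+ replicate 7. The samples kept nearly the order of exon 13, with LAC+ replicates 7 and 5 and lac- replicate 4 highest. The variation lay in the CpGs towards exon 13: the position next to it, chr1:128338094 on the minus strand, ranged from 7.56% to 80.95%, whereas the most distant, chr1:128335929, had means of 89.5% and 89.0%. At the outer end of the exon 13 stretch, chr1:128338195 lies under an annealing arm of its probe, the sequence with which the probe binds bisulfite-treated DNA.
Mcm6 exon 13 probe, arm on chr1:128338195-128338227, minus strand: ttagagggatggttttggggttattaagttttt
That CpG was listed at 3.48% ± 2.54 in lac- and 4.53% ± 2.57 in LAC+, while the same CpG on the other strand, in the gap that its probe copies, was 33.6% ± 18.4 and 43.7% ± 21.5. Exon 13 without the CpG under the arm differed by 9.05 points between the diets.

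The promoter flank of Mcm6 (chr1:128359706-128361705) was almost unmodified, at 1.44% ± 0.359 in lac- and 2.05% ± 0.922 in LAC+ over 30 CpGs, a difference of 0.602 points (exact permutation p = 0.167; interval −0.302 to 1.48). Mcm6 intron 1 (chr1:128355660-128359458), just inside the gene, ranged from 7.90% to 13.2% (median 8.78%) in lac- and from 7.07% to 25.5% (median 14.7%) in LAC+. LAC+ replicates 1 and 2 were the lowest 2 of the 13 samples, and the other 5 LAC+ samples lay above every lac- sample. All 9 of its CpGs were higher in the LAC+ mean, and the feature means of 9.40% ± 2.00 and 14.98% ± 6.69 differed by 5.57 points (exact permutation p = 0.0769, adjusted 0.412; interval −0.552 to 12.1). Within kinds of file the difference was 4.20 points (exact permutation p = 0.296). This intron was the study's negative control in its comparison of intestinal segments.

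Mcm6 exon 4 (chr1:128351433-128351682) was among the 5 features of lowest p, at 86.7% ± 1.56 in lac- and 84.05% ± 2.19 in LAC+, a difference of −2.70 points (exact permutation p = 0.0198, adjusted 0.382). Within kinds of file it was −2.43 points (exact permutation p = 0.0464), and −0.570 in merged files alone. Of the other Mcm6 features, intron 3 and intron 10 were singled out after their values were seen. Intron 3 (chr1:128351683-128353459) had 45.6% ± 4.21 and 55.6% ± 12.8 over 2 CpGs (exact permutation p = 0.103; difference 9.97 points, and 6.46 without LAC+ replicate 7), and intron 10 (chr1:128341441-128343410) differed by −0.968 points (exact permutation p = 0.0303, adjusted 0.382). Among 15 Mcm6 exons 9 were higher and 6 lower in LAC+, and among 13 introns 9 were higher and 4 lower.

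The other targets are mostly control regions of imprinted genes. Zdbf2, a paternally expressed gene, had the densest coverage, with 187 CpGs averaged over chr1:63249819-63280484. Its mean ranged from 38.6% to 40.5% (median 39.96%) in lac- and from 37.05% to 39.2% (median 38.9%) in LAC+. Lac- replicate 1 was the only lac- sample among the LAC+ values, all others being above them. The means of 39.9% ± 0.700 (SD, n = 6) and 38.5% ± 0.842 (SD, n = 7) differed by −1.39 points (interval −2.35 to −0.423; exact permutation p = 0.00932, adjusted 0.382), and by −1.44 points within kinds of file (exact permutation p = 0.0214). With reads pooled over CpGs in place of the mean of their percentages, the difference was −0.411 points (exact permutation p = 0.287). Of 191 Zdbf2 CpGs tested singly, 145 were lower in LAC+ and 36 had an unadjusted p under 0.05, against 8.05% of all CpGs tested. CpGs copied by 1 probe share their molecules and are not independent.

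Grb10, an imprinted gene for an adaptor that dampens insulin signalling, was the sole feature with an unadjusted p under 0.05 that was higher in LAC+. It ranged from 56.2% to 62.2% (median 59.6%) in lac- and from 60.5% to 64.4% (median 62.7%) in LAC+ over 17 CpGs. The means of 59.5% ± 2.44 and 62.5% ± 1.25 differed by 2.99 points (interval 0.604 to 5.40; exact permutation p = 0.0157, adjusted 0.382). Within kinds of file the difference was 2.79 points (exact permutation p = 0.0429), with 3.67 in unmerged and 0.719 in merged files.

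Kcnq1ot1, Nnat and the target near H19 were singled out after their values were seen. Kcnq1ot1 is the long non-coding RNA that silences its neighbours on the paternal allele, and the 9 CpGs read there lie in its exon and within an intron of Kcnq1, all in the stretch printed above. They averaged 79 to 87.0% (median 85.8%) in lac- and 45.9 to 87.7% (median 72.3%) in LAC+. The lac- samples lay within 8 points of each other, LAC+ replicates 1 and 2 lay among or above them, and the other 5 LAC+ samples lay below all of them. The means of 84.2% ± 3.42 and 70.2% ± 15.04 differed by −14.03 points (interval −28.0 to −0.558; exact permutation p = 0.0431, adjusted 0.393), by −11.6 within kinds of file (exact permutation p = 0.118), and by −9.44 without lac- replicate 4 and LAC+ replicate 7 (exact permutation p = 0.126). In lane 1 the Kcnq1ot1 difference was −4.78 points. All 9 CpGs were lower in LAC+, by 10.7 to 16.7 points, as were 684 of the 1180 CpGs tested over all regions. The 9 were read on 1 strand of a 149 bp stretch and are not independent.

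The Nnat target lies within an intron of Blcap, as Nnat itself does, and its 11 CpGs averaged 90.5% ± 2.93 in lac- and 82.6% ± 8.83 in LAC+ (exact permutation p = 0.0594, adjusted 0.406). All 11 were lower in LAC+, 7 of them by over 10 points, and those 7 are the CpGs of the stretch printed above. These CpGs were likewise read on 1 strand and are not independent. The target near H19, an imprinted non-coding RNA, was 36.2% ± 1.13 and 34.6% ± 1.22 over 55 CpGs (exact permutation p = 0.0326, adjusted 0.382).

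Several of these regions ordered the samples alike. LAC+ replicate 7 had the highest value of the 13 at the Lct upstream CpG, Lct intron 2, Mcm6 intron 1, intron 3, exon 13 and intron 13, and the lowest at Kcnq1ot1 and Nnat. LAC+ replicate 5 came next at 7 of these 8, counted from the same end, and was the next but 1 at Mcm6 exon 13. LAC+ replicates 1 and 2 ranked between 9 and 13 from the top at the first 6 and between 1 and 4 at Kcnq1ot1 and Nnat. Ranked likewise, lac- replicate 4 was number 2 at Mcm6 exon 13 and number 3 at intron 13, but number 11 at the Lct upstream CpG and number 2 at Kcnq1ot1, so that it was high at the Mcm6 stretch without being low at Kcnq1ot1. Lac- replicate 5, the only merged lac- file, was the highest lac- sample at the Lct upstream CpG, Lct intron 2 and Mcm6 intron 1. It was the lowest lac- sample at Kcnq1ot1 and Nnat. LAC+ replicates 3, 4, 5 and 6 were merged files, and LAC+ replicates 1, 2 and 7 were not. These 8 features share the same libraries and were chosen with their values known, and the order is a description of 13 samples. Some features with a wider range than Mcm6 intron 1 ordered the samples differently. At a target near 4930524O08Rik, lac- replicate 2 was the highest (68.1%) and LAC+ replicate 7 had 45.3%. At Mcts2 (41.7%, highest) and Lct exon 2 (75.6%, lowest), LAC+ replicate 7 was at the end, but LAC+ replicate 5 was not next to it. The cause of this order was not tested.

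**Figure D4:**
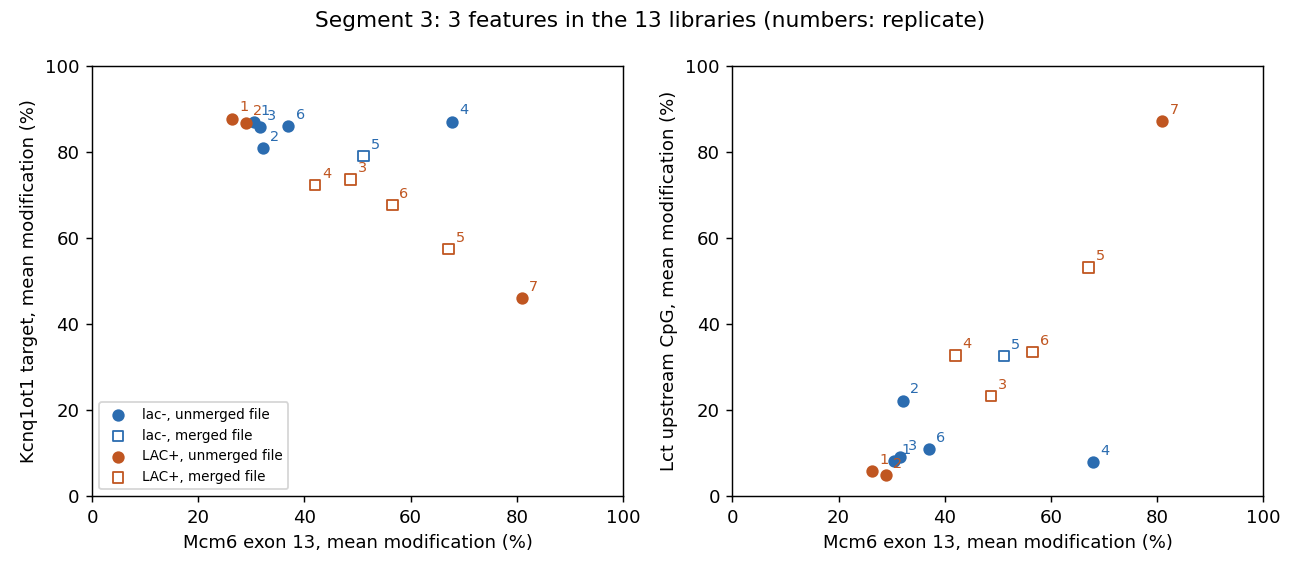
Each point is a sample, numbered by replicate within its diet, with squares for merged files. Mean modification in percent at Mcm6 exon 13 is plotted against Kcnq1ot1 (left) and the Lct upstream CpG (right), and LAC+ replicates 1 and 2 are at the opposite end from LAC+ replicates 5 and 7, with lac- replicate 4 off this order.

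At single CpGs, the lowest p was at chr1:63272809 in a Zdbf2 intron, which is also an intron of the long non-coding RNA Gm11608. It ranged from 7.47% to 10.96% in lac- and from 4.78% to 7.03% in LAC+, so that the diets did not overlap, as at 2 of the 1180 CpGs (0.169%). The means of 8.88% ± 1.22 and 5.99% ± 0.801 differed by −2.90 points (F test p = 0.000362, Bonferroni adjusted p = 0.427; exact permutation p = 0.0006, the smallest that 13 samples allow). In the second Zdbf2 stretch, chr1:63272849, in an exon of Gm11608, had 3.36% and 2.00%. In the first stretch, which is also an exon of Gm11608, the means were 45.04% and 39.7% at chr1:63267058, 46.3% and 40.9% at chr1:63267075, and 52.4% and 46.9% at chr1:63267110. Each of these 4 had a Benjamini-Hochberg adjusted p of 0.228 or more over the 1180 CpGs.

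In the locus the lowest p was at chr1:128288930 on the minus strand, in Lct intron 14, with 77.5% ± 2.66 in 3 lac- samples and 91.6% ± 2.87 in 5 LAC+ samples. Its Bonferroni adjusted p in the F test was 0.440. It had at most 90 reads in a sample. With the other 5 samples, at 30 reads or fewer, counted as 0, it had a median of 34 reads. Its dispersion of 0.359 was below the spread that read counting alone would give, which lowers the F test p. The exact permutation p was 0.0179. Next came chr1:128339454 in Mcm6 exon 12, under a probe arm, with 8.55% and 11.5%, then chr1:128285257 in Lct exon 17 (76.7% and 72.3%), chr1:128290505 in Lct intron 13 (90.8% and 87.6%) and chr1:128293733 in Lct exon 12 (87.0% and 83.2%). Each of these 4 had a Bonferroni adjusted p of 1. In Lct exon 1 the lowest unadjusted p was 0.0210, at chr1:128327710 in the coding sequence (89.8% ± 2.68 and 85.2% ± 4.46).

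In intron 8, chr1:128299820 had 50.6% ± 2.56 in lac- and 56.6% ± 6.02 in LAC+. The CpGs of lowest p in intron 2 (chr1:128318875), exon 9 (chr1:128298627) and intron 9 (chr1:128295418) differed by −3.41, −4.33 and 3.86 points. In Mcm6 intron 1, chr1:128358519 had 14.04% ± 3.26 and 23.6% ± 9.87. None of these passed correction.

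By size, the largest locus differences were 21.2 points at chr1:128328323, the plus strand of the Lct upstream CpG (12.8% ± 8.04 and 33.99% ± 26.8), 18.5 points at chr1:128338093 and 17.9 points at chr1:128338094, the strands of 1 CpG of Mcm6 intron 13. Their unadjusted F test p-values were 0.115, 0.168 and 0.132, and the LAC+ samples alone spanned 4.62% to 83.5% at the first. Outside the locus the largest was 32.0 points at chr11:22974027 in the coding sequence of Zrsr1, with 22.9% ± 16.6 in 5 lac- and 54.9% ± 12.4 in 6 LAC+ samples, on a median of 54 reads and a strand for which no probe was placed. It was followed by chr7:143295428 (−16.7 points) and chr7:143295342 (−16.6 points) of Kcnq1ot1.

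Of 192 CpGs tested on both strands, the difference had the same sign on both at 130 (67.7%), and of 123 in the locus at 90 (73.2%). In the P60 samples, which are other mice than these, 150 of 653 locus CpGs differed among the 9 segments at a Bonferroni adjusted p under 0.01. Of these 131 were tested for diet in segment 3, where 75 were higher and 56 lower in LAC+, and 10 had an unadjusted p under 0.05 (7.63%), against 9 of the remaining locus CpGs (3.90%) and 8.05% of all CpGs tested.

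The P60 samples of segment 3, from mice given water, stand side by side with the milk groups without a test. Mcm6 exon 13 was 33.6% ± 3.95 (SD, n = 8; 28.7 to 38.5%) at P60, a range that held 4 of the 6 lac- samples and 1 of the 7 LAC+ samples. The Lct upstream CpG was 12.6% ± 3.97 (9.18 to 21.1%), Mcm6 intron 1 was 8.77% ± 1.68, Kcnq1ot1 was 81.6% ± 2.75 and Lct exon 12 was 85.2% ± 0.739. At each of these the SD at P60 was smaller than that of either milk group, with the Lct upstream CpG as an example at 3.97 against 10.1 and 28.7.

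The same comparison in the other segments addresses whether segment 3 responds differently. At Lct exon 12 the lac- and LAC+ means were 81.6% and 81.1% for segment 1 and 82.7% and 80.7% for segment 4. Further along the gut they were 88.4% and 84.5% (segment 7) and 88.9% and 85.6% (segment 8). The difference of −3.35 points in segment 3 was set against −3.90 in segment 7 and −3.38 in segment 8 by a permutation test of the interaction with 100000 resamples, and neither test passed (p = 0.809 and 0.984). At Mcm6 exon 13 the difference of 8.39 points in segment 3 stood against −0.630 in segment 7 and −0.489 in segment 8 (permutation p = 0.408 and 0.398). At Mcm6 intron 1 it was 5.57 against 5.17 and 5.73 points (permutation p = 0.923 and 0.968). Over the 9 regions and both segments, 18 tests were run, and each had an adjusted p of 0.984. At the Lct upstream CpG the lac- and LAC+ means were 28.1% and 42.1% in segment 1 and 34.4% and 48.8% in segment 4. They were 15.9% and 28.8% in segment 7 and 23.2% and 35.4% in segment 8. Kcnq1ot1 means were 75.3% and 69.3% in segment 1 and 70.5% and 65.99% in segment 4. They were 83.9% and 74.4% in segment 7 and 83.2% and 71.8% in segment 8. At both, these differences had the direction seen in segment 3, and no interaction was tested for them. Whether samples of different segments came from the same mice is not in the labels, and a large p does not show that the segments respond alike. The SD within LAC+ at Mcm6 exon 13 was 19.9 in segment 3, and 2.88, 5.21, 8.00 and 5.14 in segments 1, 4, 7 and 8. Within lac- it was likewise widest in segment 3, at 14.9, and 5.51, 10.3, 6.80 and 5.42 in segments 1, 4, 7 and 8.

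**Figure D5:**
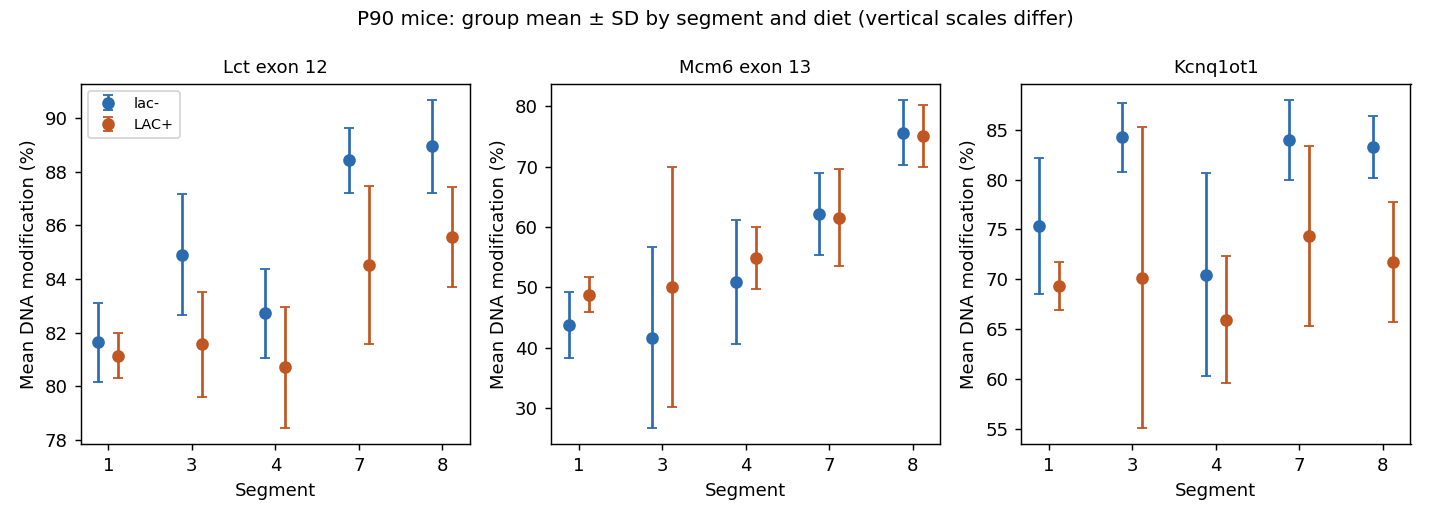
Group mean ± SD of modification in percent at Lct exon 12, Mcm6 exon 13 and Kcnq1ot1 for lac- (blue) and LAC+ (orange) P90 mice in segments 1, 3, 4, 7 and 8, on vertical scales that differ between panels. The LAC+ bar of segment 3 is the longest at Mcm6 exon 13 (SD 19.9) and at Kcnq1ot1 (SD 15.04).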

How the data were processed

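Padlock probes captured bisulfite-converted DNA from the region of Lct and Mcm6 and from further targets. The authors deposited, for each sample, whole-number counts of modified and unmodified reads at every cytosine. The submitters' processing notes name Trimmomatic 0.32, Bismark and GRCm38, and replicates were not pooled. Each probe carries 6 degenerate bases, and whether reads that share them were counted once is not given in the sources used here, so that intervals and floors from read counts would cover counting error only and none was used. Of 604 listed probe sequences, 603 were placed on GRCm38, 304 of them in the locus. The sequence context was as in the reference at 47772 of 47909 listed cytosines, and at the other 137 the deposited context held masked bases.

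Groups and replicate numbers came from the labels, and lanes and the merged mark from file names. A percent is modified reads over all reads, for cytosines with over 30 reads. CpGs with pooled modification of at most 90% were tested in a quasi-binomial model with the F test, and with limma on log2 odds (0.5 reads added to each count). The removal of CpGs above 90% and Bonferroni correction at 0.01 follow the study, and the model was not taken from it. Feature means were tested by exact permutation (1716 arrangements of the diet labels), two-sided, with Benjamini-Hochberg adjustment over 82 features. Intervals were obtained by inverting this test. Diets were also permuted within merged and unmerged files (280 arrangements), and interactions with segment used 100000 resamples. The tests were tested on simulated data. Of all pairs of samples, LAC+ replicates 1 and 2 were the closest, with a chi-square of read counts averaging 3.88 per CpG. Reads may be copies of the same molecules, so this value does not show differences beyond the sampling of molecules.

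The rule for naming CpGs took the 5 of lowest p in the locus and the 5 outside it, the lowest p in each of the 9 regions singled out by the study, the 3 largest differences in each set, and the first and last CpGs of regions described. Features named were those 9, the 5 of lowest p and the promoter flanks. The members and lists were chosen with earlier results of these data known. Sequences of the genome are from GRCm38. Alternatives covered the read minimum, the removal of highly modified CpGs, pooled reads, kinds of file, lane 1, the replicate block, CpGs in probe gaps alone and each sample left out. Python 3.11.15, NumPy 2.4.6, SciPy 1.17.1, pandas 2.3.3, Matplotlib 3.10.9, R 4.3.3 and limma 3.58.1 were used.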

Additional observations from a re-analysis of the deposited data

Results flagged for a closer look

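Of 95 sets of values, each from the lac- or the LAC+ samples with enough reads, 7 held a sample whose gap to its nearest neighbour exceeded Dixon's critical value. Chance gives about 1 in 20 for independent sets. Some of these sets share CpGs, so that this rate is only a rough guide. In read depth, lac- replicate 5 had 177582904 reads over all cytosines, against 44561041 to 54103274 in the other lac- samples. The same library was the highest lac- sample in Mcm6 intron 1, the region just inside the gene, at 13.2% (others 7.90 to 9.86%), and at chr1:128358519 within it, at 20.5% (others 12.0 to 14.3%). It was the lowest at the imprinted Nnat target, at 84.7% (others 90.8 to 92.5%). Lac- replicate 4 had 8.60% at chr1:128338195, the CpG under a probe arm in Mcm6 exon 13 (others 1.92 to 3.09%). LAC+ replicate 7 had 41.4% at chr1:63267110 of the first Zdbf2 stretch (others 46.97 to 49.1%). LAC+ replicate 2 had 53.9% at chr1:128295418 in Lct intron 9 (others 56.5 to 58.4%). What these values have in common was not tested.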

How the results depend on the processing

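The counts of CpGs and of features past correction stayed at 0 under every alternative run. The number of CpGs with an unadjusted p under 0.05, 95 with all samples, was 54 without LAC+ replicate 5, 59 without lac- replicate 6, 60 without LAC+ replicate 6, 147 without LAC+ replicate 1 and 148 without lac- replicate 5. It was 51 with the merged mark as a covariate, 43 in unmerged files, 53 in merged files and 49 without lac- replicate 4 and LAC+ replicate 7, a choice made after seeing the data. For features it was 9 with all samples, and between 4 (without lac- replicate 6) and 17 (without LAC+ replicate 1) with a sample left out. Fits of merged files and of lane 1 hold 1 lac- sample, which is assumed to vary like the LAC+ samples.

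The mean over other targets was −1.37 to −0.904 points with a sample left out, and its adjusted p fell to 0.0265 without lac- replicate 1 and to 0.0325 without LAC+ replicate 3. With a minimum of over 10 reads it was −1.13 points (adjusted p = 0.0481), and that of locus CpHs was 0.0408 points (adjusted p = 0.0297). With reads pooled over CpGs the mean of the other targets differed by −0.577 points (exact permutation p = 0.183, adjusted 0.549). These p-values are from exact permutation tests. Without LAC+ replicate 7 the difference was 0.453 points in Lct intron 9, 0.174 in Lct intron 8 and 0.358 in the Mcm6 upstream flank, and Lct intron 8 ranged from 0.0238 (without lac- replicate 1) to 0.698 (without lac- replicate 4).

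Directions turned mostly at lane 1 (1 lac- and 6 LAC+ samples), where the locus mean differed by −0.0869 points, Lct intron 2 by −4.93, Lct exon 9 by 0.272, Mcm6 exon 13 by −6.20, Mcm6 intron 13 by −3.93, Mcm6 exon 4 by 0.0586, Lct intron 11 by 0.0134, the Lct upstream flank by −7.05, that of Mcm6 by −0.288, Nnat by 0.298, Lct exon 17 by 0.494 and Mcm6 intron 10 by 0.269. The CpGs chr1:128328323 and chr1:128338093 there differed by −2.22 and −0.594 points. In merged files Lct intron 2 differed by −1.94, Lct exon 9 by 0.493, Lct exon 17 by 0.273 and Mcm6 intron 10 by 0.202. With pooled reads Lct intron 8 differed by −0.271 and Lct exon 9 by 1.03. Lct exon 9, with a difference near 0, was 0.0110 within kinds of file, 0.0864 without CpGs above 90%, 0.717 without lac- replicate 4 and LAC+ replicate 7, and −0.632 to 0.881 with a sample left out. Lct exon 1 was −1.55 to 0.779 with a sample left out, and 0.599 without those 2 samples. The causes were not tested.

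No clear pairing by replicate number was seen. Deviations of the 6 same-number pairs correlated at −0.308 to 0.471 (mean 0.124, against −0.0184 for different numbers). Of the lac- samples, 0 correlated best with its own number. So few pairs cannot exclude a pairing, and the labels do not tie numbers to animals. With the replicate block, 0 CpGs and 0 features passed, 124 CpGs had an unadjusted p under 0.05, the mean of the other targets differed by −1.04 points (exact permutation p = 0.0625) and Lct exon 12 by −2.78 (p = 0.0313 by exact permutation). With a sample left out, all 296 values for named CpGs kept direction and side of the threshold, and 7 of those for named features did not. Under the other alternatives 2 of 324 and 21 of 230 did not.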
